A study of Homo sapiens with 4 samples.

Results

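Lactate and pyruvate cross membranes on dedicated carriers, and 8 genes of that system were followed here through 4 RNA-seq libraries of MDA-MB-231, a long-established human cell line from a triple-negative breast cancer. The genes were 3 monocarboxylate carriers of the plasma membrane (SLC16A1, SLC16A3 and SLC16A7), the 2 chaperones that bring such carriers to the surface (BSG and EMB), the 2 subunits of the mitochondrial pyruvate carrier (MPC1 and MPC2) and 1 lactate dehydrogenase subunit (LDHB). They are 8 of the 58735 genes of the deposited count table, matched by gene name. SLC16A1 was picked because it had 0 reads in one library and at least 238 in the other 3, so its difference between those libraries is a description and supports nothing further. The other members were picked for their function beside it.

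All 4 libraries came from cells with a doxycycline-inducible histone H2B-eGFP reporter, grown in high-glucose medium, in which doxycycline at 5 μg/ml was given for 3 days, the dyes Claret and Violet were loaded, and both kinds of label were chased for 12 days. Label is halved at each division, so the cells that kept most of it divided least. The top 1% of cells for Claret, for eGFP and for Violet were sorted as 3 slow-cycling populations, and the Bulk control passed the sorter without any gate on label; Bulk carries the same reporter, doxycycline and dyes. Each population gave 1 library, so no difference below has a replicate check, and all intervals cover counting error only. Libraries are named by their titles; the treatment field of every sample names a different sort, and by it the library titled Bulk would be Claret and the library titled Violet would be the un-gated one.

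Summed counts were 15508179 to 16976909 per library, and 0 reads allow a level of up to 0.177 to 0.191 CPM (counts scaled to library size). Reads of MKI67, a proliferation marker, numbered 6778 in Bulk and 689 to 995 elsewhere; with TOP2A it summed to 1333 CPM in Bulk and 200 to 270 CPM in the slow-cycling libraries. The 5 MDA-MB-231 markers VIM, CD44, AXL, MSN and CAV1 summed to 3576 to 3911 CPM in all 4 libraries, although CAV1 was lower than in Bulk (log2 ratios of -0.85, -0.95 and -0.77 in Claret, eGFP and Violet) and VIM higher (0.46, 0.44 and 0.35). Of the luminal markers, PGR had 0 reads throughout, CDH1 had 0 to 3 and ESR1 3 to 7; the 5 luminal markers, with GATA3 and EPCAM, summed to 7.43 to 9.65 CPM. Fibroblast markers summed to 30.8 CPM in Bulk and 46.8 to 49.4 CPM in the slow-cycling libraries, where PDGFRB and COL1A1 held nearly all reads, LUM had 0 and DCN 0 to 2. Endothelial and leukocyte markers summed to 4.03 to 6.35 CPM, with CD3E at 0 in every library. The part of these markers in the results below was not tested.

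As background, fast glycolysis leaves cells with pyruvate that lactate dehydrogenase turns into lactate, and lactate leaves the cell together with a proton. SLC16A1 encodes MCT1, a carrier of moderate affinity that works in both directions. SLC16A3 encodes MCT4, which is typical of glycolytic cells that export lactate and is a known target of the hypoxia factor HIF-1. SLC16A7 encodes MCT2, a high-affinity carrier usually tied to uptake. MCT1 and MCT4 need basigin (BSG) to reach the membrane, and MCT2 prefers embigin (EMB). MDA-MB-231 has been described as a cell line that relies on MCT4 and has little or no MCT1. Pyruvate that is not reduced enters mitochondria through a heterodimer of MPC1 and MPC2. Lactate dehydrogenase is a tetramer of LDHA and LDHB subunits, of which LDHB favours the reaction from lactate to pyruvate.

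Promoter sequence is shown for SLC16A3, BSG and LDHA because these highly expressed genes of lactate production and export differed from Bulk in opposite directions, BSG upward and the other 2 downward. RefSeq's table (GRCh38.p14, 300 bases around each start) held 14 entries for 6 of the 8 members and 2 for LDHA; SLC16A1 and EMB were not among them. Each was searched on both strands for ACGTG (the core of a hypoxia-response element), TGANTCA (the AP-1 motif, named because the series title names AP-1) and TGACGTCA (a cAMP-response element). ACGTG stood in 2 of the 14 entries, 1 of SLC16A3 and 1 of BSG, against 21.4% of all 35116 entries. It also stood 5 times in 1 of the 2 LDHA entries, counting both strands. TGANTCA stood in 0 of the 14 and in 7.71% of all entries, and TGACGTCA in 0 of the 14, once in that LDHA entry, and in 1.85% of all. The entry with most ACGTG matches is printed for each gene, from its first base to the base before the first annotated exon base, with ACGTG or its reverse complement in capitals. The printed LDHA stretch of 75 bases holds 2 of the 5 ACGTG matches of its entry and not the TGACGTCA match. In BSG and LDHA the capitals spell CACGTG, the E-box, which holds ACGTG on both strands. A match describes letters in this window and nothing about a factor.
SLC16A3, chr17:82228792-82229031, plus strand: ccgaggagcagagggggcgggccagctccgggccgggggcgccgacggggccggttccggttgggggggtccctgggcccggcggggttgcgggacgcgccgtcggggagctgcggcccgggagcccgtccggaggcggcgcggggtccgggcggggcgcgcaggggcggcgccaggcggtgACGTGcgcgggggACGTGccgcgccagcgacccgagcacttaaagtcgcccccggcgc
BSG, chr19:572346-572564, plus strand: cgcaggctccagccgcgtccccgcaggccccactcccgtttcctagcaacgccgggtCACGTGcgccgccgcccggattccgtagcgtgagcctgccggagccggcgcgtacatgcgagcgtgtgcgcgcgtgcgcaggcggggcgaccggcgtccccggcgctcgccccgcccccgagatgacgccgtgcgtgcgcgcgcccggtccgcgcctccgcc
LDHA, chr11:18394313-18394387, plus strand: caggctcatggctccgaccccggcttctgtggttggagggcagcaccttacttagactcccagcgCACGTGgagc

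The carriers of the plasma membrane went in opposite directions. SLC16A1 (MCT1; ENSG00000155380, GRCh38 chromosome 1, 112911847 to 112957013, minus strand, 7 annotated transcripts) had 0 reads in Bulk beside 372 for Claret, 331 for eGFP and 238 for Violet. Its level was 21.9 CPM for Claret, 20.8 for eGFP and 15.1 for Violet, and in Bulk it was no more than the 0.190 CPM that 0 reads allow. With Bulk set at 3 reads, the ratio of levels was 115 for Claret, 109 for eGFP and 79.4 for Violet. With counting error in both libraries taken in, the exact 95% lower bounds were lower, so that the level was at least 93.1-fold higher in Claret, at least 88.5-fold in eGFP and at least 64.1-fold in Violet. All 3 slow-cycling libraries were far above Bulk, and Violet was the lowest of them. In bulk RNA, a few cells with much of this transcript and many cells with little of it cannot be told apart. Per length, in the authors' FPKM (fragments scaled to gene length and library size), SLC16A1 stood at 4.13 for Claret, 3.899 for eGFP and 2.79 for Violet. That placed it above 44.2%, 42.8% and 34.5% of the 14585 genes kept for analysis (mean of at least 1 CPM), in the lower part of the expressed genes.

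**Figure D1:**
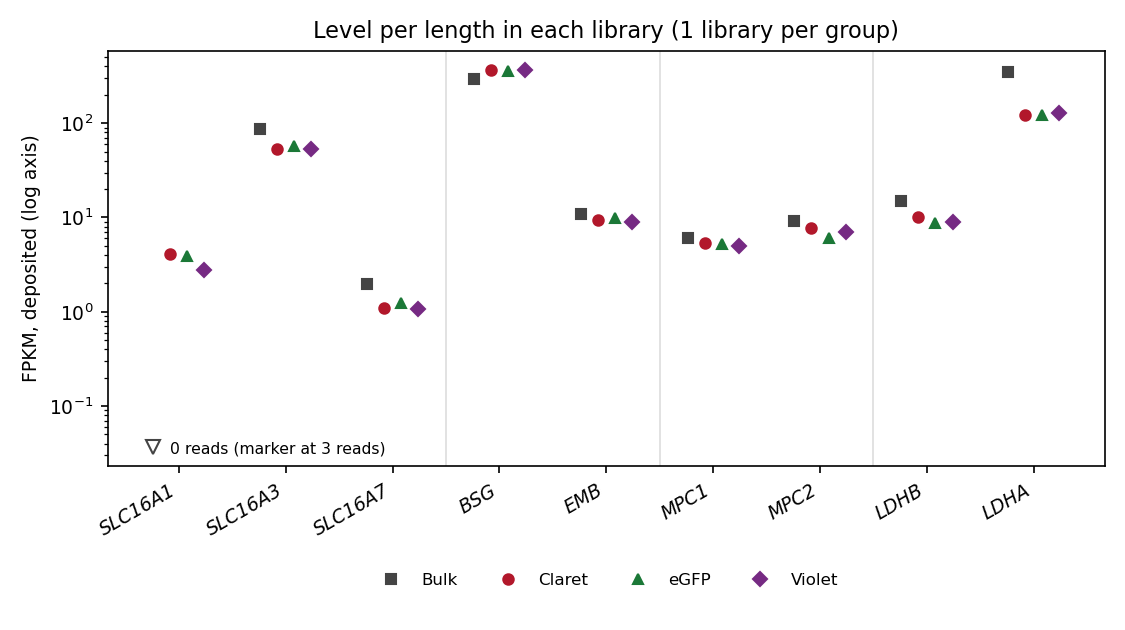
Deposited FPKM (log axis) of the 8 members and LDHA in Bulk, Claret, eGFP and Violet, 1 point per library with no error bar because each group is 1 library; grey lines divide plasma membrane carriers, chaperones, mitochondrial carriers and lactate dehydrogenases. SLC16A1 has no reads in Bulk (open marker, drawn at the level of 3 reads) and 2.79 to 4.13 FPKM elsewhere, while SLC16A3 and LDHA are highest in Bulk and BSG is lowest there.

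How unusual a silent gene of this kind was could be counted over the table. Of the genes with 0 reads in Bulk, 1045 had at least 1 read in each slow-cycling library, but 3 of them had at least 50 in each and SLC16A1 alone had at least 100 in each. The other two were MOV10L1 (108, 56 and 75 reads in Claret, eGFP and Violet) and IL21R (68, 68 and 52). In the other direction, no gene with 0 reads in all 3 slow-cycling libraries had more than 10 reads in Bulk. That condition is stricter, since it asks for 0 reads in 3 libraries and not in Bulk alone, so the directions are not compared. These counts describe the gene that was picked and are no test of it.

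The 5 protein-coding genes below were most like SLC16A1, by the Euclidean distance between the 3 log2 ratios to Bulk, over 4 libraries. INHBE, an activin subunit, was closest at 0.41, with a Bulk count of 1 read and 620, 615 and 431 in the order Claret, eGFP, Violet. CHAC1, a glutathione-degrading enzyme of the stress response, came next at 3.04, then MOV10L1 (3.49), IL21R (3.94) and PYY (4.44). PYY, a gut peptide hormone, had 63 to 88 reads outside Bulk and 1 in it. With 0 or 1 read in Bulk, as in 4 of these genes and SLC16A1 itself, the prior count of 2 reads sets the size of the ratio (with 0.5 in its place SLC16A1 went from 7.47 to 9.46 in Claret), so the order of the distances is a description on that scale only.

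Reads around the locus were few. SLC16A1-AS1, an antisense transcript on chromosome 1 (112956415 to 113047055, plus strand) that shares 175 exonic bases with SLC16A1, or 3.29% of its exonic length, had no read in Bulk and 1 to 3 in the slow-cycling libraries. The pseudogene AKR7A2P1 inside SLC16A1 had 0 or 1 read. The lincRNA AL390729.1 and the pseudogene AL390729.2, the other annotated genes within 50 kb, also had 0 or 1. Of the 31-base words of SLC16A1 transcripts, 2.73% occurred in another gene.

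SLC16A3 (MCT4; ENSG00000141526, chromosome 17, 82228397 to 82261129, plus strand) was the dominant carrier in every library. It had 12079 reads in Bulk beside 8119 for Claret, 8181 for eGFP and 7763 for Violet, or 767, 478, 515 and 493 CPM. Bulk was above each of the others, which lay close together. The log2 ratio to Bulk was -0.68 for Claret (95% interval -0.72 to -0.64), -0.57 for eGFP (-0.62 to -0.53) and -0.64 for Violet (-0.68 to -0.60), with a 0.62- to 0.67-fold level. After a correction for GC content these were -0.90, -0.78 and -0.82. CSNK1D, a kinase gene on the opposite strand, shares 5.36% of the exonic bases of SLC16A3 and was 0.13 to 0.19 higher than Bulk.

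SLC16A7 (MCT2; ENSG00000118596, chromosome 12, 59596067 to 59789855, plus strand) was weakly expressed, with 419 reads in Bulk beside 257 for Claret, 269 for eGFP and 237 for Violet. Bulk again stood above the rest. Its log2 ratios were -0.81 (-1.04 to -0.59), -0.65 (-0.88 to -0.43) and -0.82 (-1.06 to -0.59) in Claret, eGFP and Violet. The ratio of SLC16A7 to SLC16A3 per length was 2.28% in Bulk (2.07 to 2.52) and 2.01 to 2.16% elsewhere, with intervals that overlap, so the balance of these 2 carriers was not detectably different. With a correction for GC content SLC16A7 was at -0.72 in Claret and -0.55 in eGFP, beside -0.90 and -0.78 for SLC16A3. Which of these carriers was further below Bulk there thus depends on that correction.

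The make-up of the 3 carriers can be compared within a library, where no scaling between libraries enters. SLC16A1 was 0% of SLC16A3 per length in Bulk (3 reads in its place would give 0.0421%), 7.76% for Claret (6.97 to 8.61), 6.85% for eGFP (6.12 to 7.65) and 5.19% for Violet (4.54 to 5.91). SLC16A1 thus stayed a minor carrier beside SLC16A3 in each of these libraries. Against SLC16A7 it was the larger, at 3.72 times its level per length for Claret (3.17 to 4.38), 3.17 for eGFP (2.69 to 3.73) and 2.58 for Violet (2.15 to 3.11). Over all 3 carriers the FPKM summed to 88.4 in Bulk beside 58.4 for Claret, 62.0 for eGFP and 57.6 for Violet. The sum was lower in the slow-cycling libraries with SLC16A1 included. The share of SLC16A3 in it was 97.8% in Bulk and 91.0, 91.7 and 93.3% in the order Claret, eGFP, Violet.

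BSG (basigin; ENSG00000172270, chromosome 19, 571277 to 583493, plus strand) was the most abundant member. It had 17522 reads in Bulk beside 23848 for Claret, 21797 for eGFP and 22154 for Violet, or 1112, 1404, 1371 and 1407 CPM. Unlike SLC16A3 and SLC16A7, it was lowest in Bulk. Relative to Bulk the log2 ratios were 0.34 (0.31 to 0.37), 0.30 (0.27 to 0.33) and 0.34 (0.31 to 0.37). BSG transcripts are GC-rich (61.6%), and with a correction for GC content the ratios were lower, at 0.12, 0.10 and 0.16, with the same sign.

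EMB (embigin; ENSG00000170571, chromosome 5, 50396192 to 50443248, minus strand) had 889 reads in Bulk beside 834 for Claret, 834 for eGFP and 764 for Violet. The log2 ratios to Bulk were -0.20 (-0.34 to -0.06), -0.10 (-0.24 to 0.03) and -0.22 (-0.36 to -0.08), and in eGFP the difference from Bulk was not detectable at this depth. With a correction for GC content they were -0.10, 0.00 and -0.13. Of its 31-base words, 31.3% occurred in another gene, so its counts are uncertain. Per length BSG was 27.3 times EMB in Bulk (25.5 to 29.2), 39.6 times for Claret (36.9 to 42.5), 36.2 for eGFP (33.8 to 38.8) and 40.1 for Violet (37.4 to 43.2). These ratios are not corrected for GC content. With that correction the log2 ratios of BSG and EMB to Bulk lay closer together, at 0.12 and -0.10 in Claret and 0.10 and 0.00 in eGFP. The FPKM of both chaperones together was 3.48 times that of the 3 carriers in Bulk, 6.49 times for Claret, 5.95 for eGFP and 6.46 for Violet. SLC16A3 relative to BSG was 0.494 times its Bulk value for Claret (0.477 to 0.511), 0.544 for eGFP (0.526 to 0.564) and 0.508 for Violet (0.491 to 0.526).

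**Figure D2:**
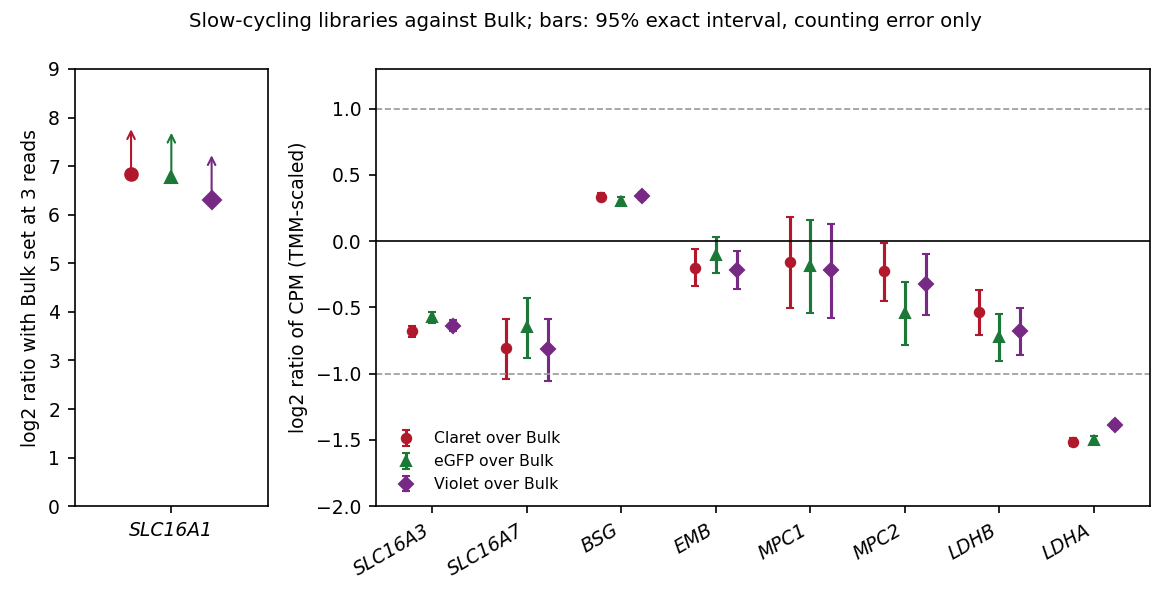
Log2 ratio of each slow-cycling library to Bulk for SLC16A1 (left, with Bulk set at 3 reads in place of 0, arrows upward because the true Bulk level may be lower) and for the other members and LDHA (right, TMM-scaled CPM, bars show 95% exact intervals for counting error, dashed lines a 2-fold difference). SLC16A3, SLC16A7 and LDHB lie between -0.54 and -0.82, BSG lies at 0.30 to 0.34, and LDHA at -1.39 to -1.52.

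The mitochondrial carrier genes are short and had few reads, but per length MPC2 stood above 55.5 to 64.0% and MPC1 above 49.9 to 53.5% of the genes kept. MPC1 (ENSG00000060762, chromosome 6, 166364919 to 166383013, minus strand) had 146 reads in Bulk beside 141 for Claret, 129 for eGFP and 125 for Violet. On the log2 scale it stood against Bulk at -0.16 (-0.50 to 0.19), -0.19 (-0.54 to 0.16) and -0.22 (-0.58 to 0.13), so no difference from Bulk was detectable at this depth; with a correction for GC content they were -0.10, -0.13 and -0.22. MPC2 (ENSG00000143158, chromosome 1, 167916729 to 167937040, minus strand) had 361 reads in Bulk beside 332 for Claret, 250 for eGFP and 288 for Violet. The 3 log2 ratios were -0.23 (-0.45 to -0.01), -0.54 (-0.78 to -0.31) and -0.32 (-0.55 to -0.10), with eGFP the lowest library. With a correction for GC content they were -0.13, -0.43 and -0.26. MPC2 shares 22.5% of its exonic bases with DCAF6 on the opposite strand, which was 0.18 to 0.20 higher than Bulk; how reads in the shared bases were counted is not given in the sources used here. The ratio of MPC1 to MPC2 per length was 0.668 in Bulk (0.547 to 0.811), 0.701 for Claret, 0.852 for eGFP and 0.716 for Violet. The ratio relative to Bulk had intervals that included 1 in all 3 libraries (0.790 to 1.40 for Claret, 0.948 to 1.72 for eGFP and 0.799 to 1.44 for Violet).

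LDHB (ENSG00000111716, chromosome 12, 21635342 to 21757857, minus strand) had 686 reads in Bulk beside 509 for Claret, 418 for eGFP and 427 for Violet. Bulk was the highest library. Its log2 ratios were -0.54 (-0.71 to -0.37), -0.72 (-0.91 to -0.55) and -0.68 (-0.86 to -0.51). The count is uncertain in level, because 33.4% of its exonic bases also belong to AC010197.2, a gene on the same strand that had 0 reads in every library. Reads in those bases were thus counted for LDHB or left out. Which of these held is not given in the sources used here, so the LDHB count may be too low. The 33.4% is a share of the 2983 exonic bases of all 10 annotated transcripts and not a share of reads. It thus sets no limit on the share of LDHB reads that may be missing, which was not tested.

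LDHA, the partner subunit and the main lactate-producing enzyme of glycolytic cells, is not a member but sets the scale (ENSG00000134333, chromosome 11, 18394388 to 18408425, plus strand). It had 33794 reads in Bulk beside 12732 for Claret, 12037 for eGFP and 12923 for Violet, and its log2 ratios were -1.52 (-1.55 to -1.49), -1.502 (-1.53 to -1.47) and -1.39 (-1.42 to -1.36). Both subunits were thus lower than in Bulk, LDHA by more. LDHB was 4.23% of LDHA per length in Bulk (3.91 to 4.56), 8.32% for Claret (7.60 to 9.09), 7.23% for eGFP (6.54 to 7.97) and 6.88% for Violet (6.23 to 7.58). Relative to Bulk that ratio was 1.97 times higher for Claret (1.75 to 2.22), 1.71 for eGFP (1.51 to 1.94) and 1.63 for Violet (1.44 to 1.84), a comparison that does not depend on gene length or library scaling. The percentages themselves may be too low, because LDHB reads in the exonic bases shared with AC010197.2 may be missing. The intervals do not cover this. SLC16A3 relative to LDHA was 1.78 times its Bulk value for Claret, 1.90 for eGFP and 1.68 for Violet.

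**Figure D3:**
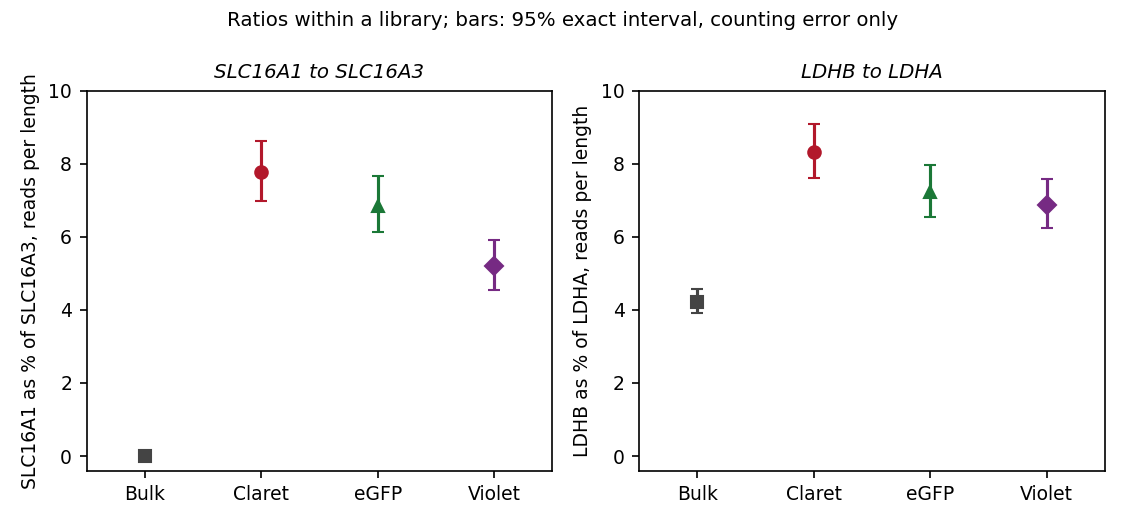
SLC16A1 as a percentage of SLC16A3 (left) and LDHB as a percentage of LDHA (right), in reads per gene length within each of the 4 libraries; bars are 95% exact intervals for counting error. SLC16A1 runs from 0% in Bulk to 7.76% in Claret with Violet lowest of the slow-cycling libraries at 5.19%, and LDHB from 4.23% in Bulk to 6.88 to 8.32% in the others. LDHB reads in exonic bases shared with another gene may be missing, so its percentages may be too low.

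A gene was called when its log2 ratio reached 1 in either direction, a 2-fold difference, and all 8 members passed the filter on low counts. In each slow-cycling library 1 member was called higher than Bulk, SLC16A1, beside 11.3% of all genes kept for Claret, 12.0% for eGFP and 11.7% for Violet. That member was chosen on this contrast, so nothing is read from its call. No member was called lower, beside 6.72%, 7.64% and 6.92% of all genes kept; in either direction the shares were 18.0%, 19.6% and 18.6%. Of the 7 members other than SLC16A1, BSG was above 0 and the other 6 were below 0 in each library, with a range from -0.82 to 0.34 (EMB in eGFP was at 0.00 after the correction for GC content). The median over the 8 members was -0.21 for Claret, -0.36 for eGFP and -0.27 for Violet, beside -0.01, -0.01 and 0.01 over all genes kept. Intervals against Bulk excluded 0 for 70.3% of all genes kept in Claret, 71.4% in eGFP and 71.0% in Violet. An interval that excludes 0 was thus common and is not read as particular to a member. The 3 comparisons share the Bulk library, so they are not independent of each other.

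Differences among the slow-cycling libraries were a contrast that the choice of members did not use. The SLC16A1 counts in these libraries did enter its choice, so its differences here are also a description. No member was called in any of the 3 pairs, beside 1.15% of all genes kept for Claret over eGFP (0.501% higher and 0.644% lower), 1.06% for Claret over Violet (0.329% and 0.727%) and 1.29% for the pair of eGFP and Violet (0.377% and 0.912%). In both pairs with Violet, SLC16A1 was the member that differed most. Between Claret and eGFP, SLC16A1 differed less than MPC2, LDHB, SLC16A7, SLC16A3 and EMB. It was higher in Claret than in Violet by a log2 ratio of 0.53 (0.30 to 0.78) and higher in eGFP than in Violet by 0.46 (0.22 to 0.71), while Claret and eGFP differed by 0.07 (-0.14 to 0.29). A difference at least as large was present in 6.22% of all genes kept for Claret against Violet and in 9.44% for eGFP against Violet. Relative to SLC16A3 in the same library, SLC16A1 was 1.49 times higher in Claret than in Violet (1.26 to 1.77) and 1.32 times higher in eGFP than in Violet (1.11 to 1.57).

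The remaining members differed little among these 3 libraries. MPC2 was 0.31 higher in Claret than in eGFP (0.07 to 0.56), and 16.2% of all genes kept differed by at least as much in that pair. SLC16A3 was slightly higher in eGFP than in Claret (-0.11 for Claret over eGFP, -0.15 to -0.06) and than in Violet (0.06, 0.02 to 0.11). BSG was within 0.04 in every pair. Of all genes kept, intervals excluded 0 for 24.4% for Claret over eGFP, 28.0% for Claret over Violet and 28.3% for eGFP over Violet. SLC16A7, EMB, MPC1 and LDHB had intervals that included 0 in all 3 pairs. The widest of these, for MPC1, ran from -0.33 to 0.40 for eGFP over Violet, so differences of that size could not be seen at this depth.

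**Figure D4:**
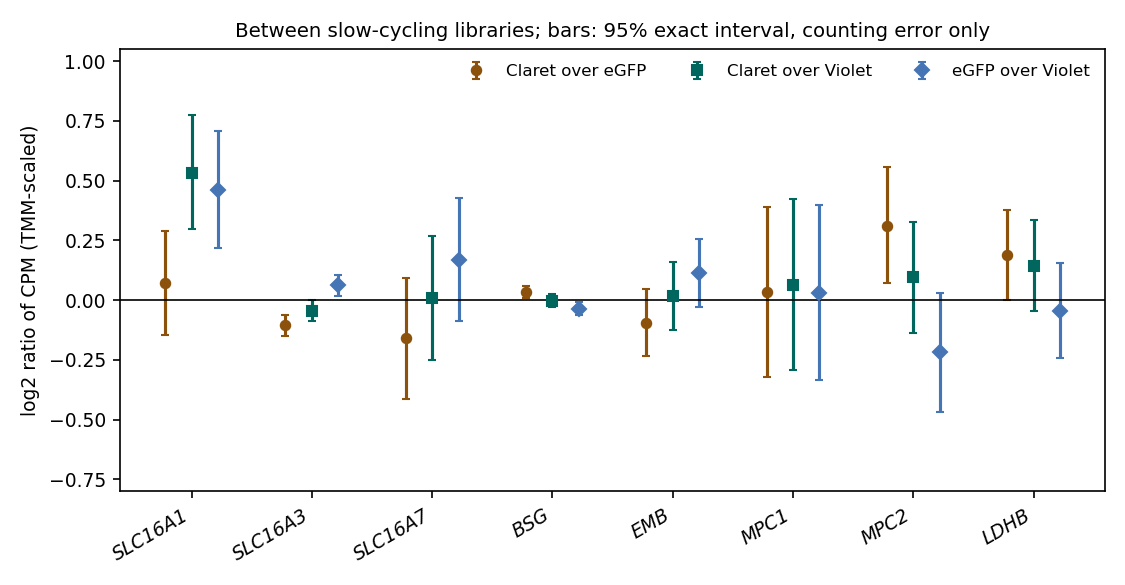
Log2 ratio (TMM-scaled CPM) of the 8 members between the slow-cycling libraries in 3 pairs, with 95% exact intervals for counting error. SLC16A1 lies above 0 in both pairs with Violet (0.53 and 0.46), MPC2 at 0.31 for Claret over eGFP, and no member reaches 1.

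The genes around the carriers were read from lists of 59 genes, of which 50 passed the filter. In Claret 6 were called higher and 5 lower than Bulk, in eGFP 6 and 3, and in Violet 8 and 3. Over all genes kept the shares higher and lower were 11.3% and 6.72% in Claret, 12.0% and 7.64% in eGFP and 11.7% and 6.92% in Violet; no count is read as particular to these genes. The median log2 ratio was -0.26, -0.24 and -0.26, beside -0.01, -0.01 and 0.01 over all genes kept. Higher in all 3 libraries were SLC16A5, SLC16A8, LDHD, GPT and GPT2, and lower in all 3 were LDHA and PGAM1. Of all genes kept, 8.67% were higher and 4.93% lower in all 3, so that 5 and 2 of 50 are close to the background.

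Among the other SLC16 genes, 7 of 11 passed the filter, 2 were called higher in Claret and 3 in eGFP and in Violet, and none lower, with medians of 0.64, 0.57 and 0.98. With so few genes, these counts are read only beside the shares of all genes kept. These were 11.3 to 12.0% higher and 6.72 to 7.64% lower. SLC16A8, which encodes MCT3, a lactate exporter known from the retinal pigment epithelium, had 30 reads in Bulk beside 154 for Claret, 159 for eGFP and 183 for Violet. Against Bulk its log2 ratios were 2.18 (1.68 to 2.87), 2.32 (1.82 to 3.01) and 2.53 (2.05 to 3.22), and its 4.12 to 5.17 FPKM in the slow-cycling libraries compared with 2.79 to 4.13 FPKM for SLC16A1; the levels were alike in Claret (4.12 and 4.13), while in Violet SLC16A8 was at 5.17 and SLC16A1 at 2.79. SLC16A5, a family member not known for lactate transport, went from 353 reads to 774, 753 and 759, with log2 ratios of 1.02, 1.08 and 1.10. With a correction for GC content SLC16A5 was at 0.88, 0.93 and 0.97 and no longer called. SLC16A12, a creatine carrier with 13 to 29 reads, was barely past the threshold in eGFP, at 1.04 (0.16 to 2.21), and in Violet, at 1.003 (0.11 to 2.18). The 8 list genes called higher in Violet were 7 with DESeq2 size factors, with no filter and with the GC correction. The sodium-coupled lactate carriers SLC5A8 and SLC5A12 had 0 reads in every library.

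Genes that sense or use lactate and pyruvate were as follows. HCAR1, the lactate receptor, had 44 reads in Bulk beside 16 for Claret, 22 for eGFP and 19 for Violet. Its ratios on the log2 scale were -1.45 (-2.49 to -0.71), -0.95 (-1.82 to -0.24) and -1.13 (-2.07 to -0.40). NPTN, a relative of basigin, was within 0.12 of Bulk in every library. LDHD, the mitochondrial D-lactate dehydrogenase, went from 25 reads in Bulk to 85 for Claret, 82 for eGFP and 75 for Violet, with log2 ratios of 1.58 (1.00 to 2.36), 1.63 (1.04 to 2.41) and 1.51 (0.92 to 2.30).

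The alanine transaminases, which exchange pyruvate for alanine, were both called higher. GPT2, the mitochondrial enzyme, had 942 reads in Bulk beside 2592 for Claret, 2474 for eGFP and 2175 for Violet, with ratios on the log2 scale of 1.35 (1.24 to 1.46), 1.38 (1.27 to 1.49) and 1.21 (1.10 to 1.32). GPT, the cytosolic enzyme, had 19 reads in Bulk and 44, 52 and 57 elsewhere, with log2 ratios of 1.03 (0.30 to 1.96), 1.35 (0.66 to 2.28) and 1.49 (0.82 to 2.42). With a correction for GC content GPT in Claret was at 0.86 and no longer called. Of the 3 malic enzymes, none was called, and over all 5 genes of that list the medians were 0.67, 0.62 and 0.65.

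The pyruvate dehydrogenase list of 13 genes, which also holds its kinases and phosphatases and pyruvate carboxylase (PC), had medians of -0.36, -0.27 and -0.31. PDK4, a kinase that switches the complex off, was the gene called, with log2 ratios of 1.03 (0.67 to 1.45) in Claret and 1.17 (0.81 to 1.59) in Violet, and it was at 0.67 (0.27 to 1.10) in eGFP. DLAT, a catalytic subunit, was at -0.86, -0.98 and -0.94, and PC at 0.38, 0.45 and 0.36. The 17 glycolysis genes had medians of -0.47, -0.41 and -0.44, with 13 or 14 of them below 0. ALDOA, an aldolase gene counted among these, had only 121 to 154 reads per library, and whether reads of it are missing was not tested. PGAM1, phosphoglycerate mutase, was lower by -1.46, -1.44 and -1.32, from 16231 reads in Bulk to 6041 to 6509. TPI1 was at -1.03, -0.98 and -0.99, called in Claret, and SLC2A3, a glucose carrier, was at 0.96, 0.94 and 1.08, called in Violet. Of the 4 proton-handling genes, CA2, a carbonic anhydrase, was at -1.07, -1.31 and -0.86 with 29 to 40 reads in the slow-cycling libraries against 74 in Bulk, called in Claret and eGFP; the medians of the 4 were -0.35, 0.01 and -0.04.

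**Figure D5:**
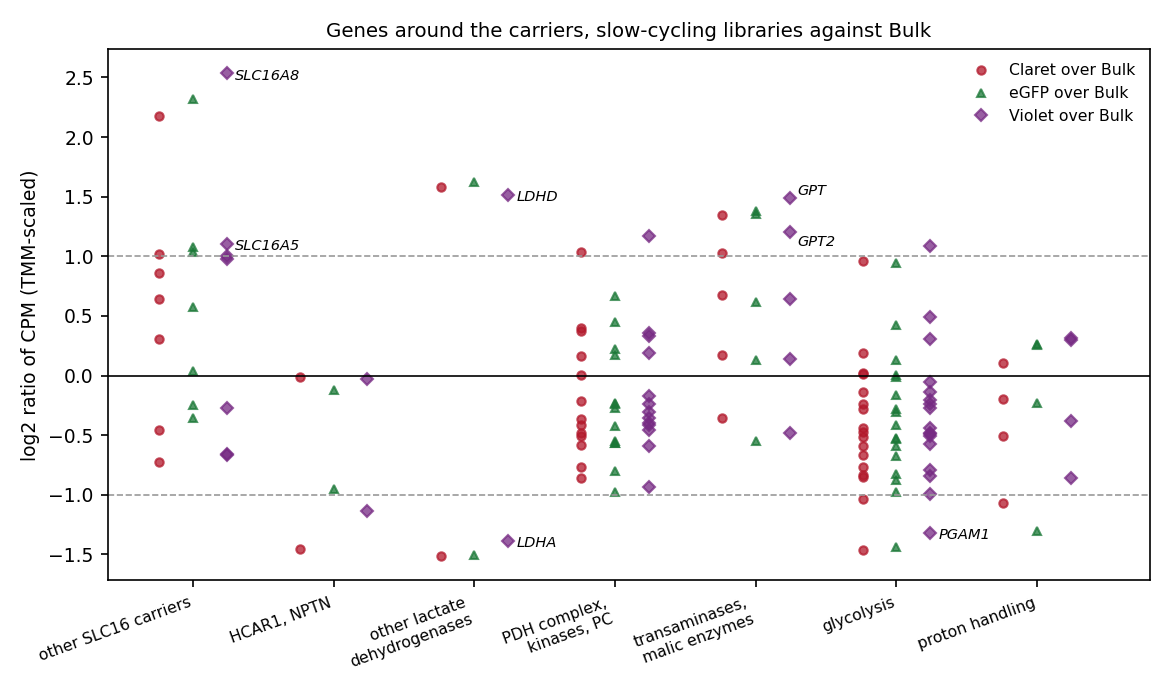
Log2 ratio to Bulk (TMM-scaled CPM) of the 50 list genes that passed the filter, by list and slow-cycling library, 1 point per gene and library; dashed lines mark a 2-fold difference, and genes past it in all 3 libraries in 1 direction are named. SLC16A8 lies highest (2.18 to 2.53), while LDHA and PGAM1 lie below -1 in all 3 libraries.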

How the data were processed

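The 4 sorts of MDA-MB-231 cells gave 1 library each, from TRIzol-extracted RNA and prepared, per the labels' protocols, with NEBNext Ultra reagents. Reads were processed by the authors with HISAT2 2.0.5 and featureCounts 1.5.0-p3, per the submitters' processing notes; use of strand, of reads in overlapping genes and of multi-mapping reads is not given in the sources used here. The deposited table holds whole-number read counts per gene without normalization by the authors, as the values show. The deposited FPKM values are scaled to gene length and library size, made by the authors from the same counts, and were used for levels per length. Start and end equal GENCODE 29 (GRCh38) for 58724 of 58735 genes; coordinates are 1-based.

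Counts were scaled by TMM (edgeR 4.0.16, R 4.3.3). Genes with a mean of at least 1 CPM were kept (14585). A prior count of 2 reads, scaled to library size, was added to the counts before they were turned into CPM. A call was a log2 ratio of at least 1 in size. With 1 library per group no spread between replicates can be estimated, so no test across genes was run and no p-value is given. Intervals are 95% and exact: Clopper-Pearson bounds turned into a ratio of 2 read counts, or exact conditional intervals of an odds ratio (SciPy 1.17.1), and cover counting error only, since reads carry no molecular identifiers. For levels, and for ratios that need a value in place of 0, a count of 0 was set at 3 reads; interval bounds at 0 reads are the Clopper-Pearson ones. Ratios and calls were checked on simulated data. These held counting error only, as the intervals assume, so the check does not bear on spread between libraries.

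Summed counts were 15508179 to 16976909 per library. Alternatives were summed counts as library size, DESeq2 1.42.0 size factors, no filter, a filter at 10 CPM, a prior count of 0.5, log2(FPKM + 1), centring within 20 bins of transcript GC content, groups from the treatment field, a binomial test as an added condition and a log2 threshold of 1.5. The members and gene lists were chosen with earlier results of these data known. Genes named were the members, LDHA, MKI67 and list genes past the threshold in Claret, eGFP and Violet alike. Also named were the 5 genes most like SLC16A1, and genes overlapping a member or within 50 kb of SLC16A1. HCAR1, NPTN, SLC16A12, SLC5A8, SLC5A12, PDK4, DLAT, PC, TPI1, SLC2A3, ALDOA, CA2, CA9 and the marker genes were named after their values were seen.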

Additional observations from a re-analysis of the deposited data

Results flagged for a closer look

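CA9, a carbonic anhydrase of the cell surface known to work beside lactate carriers, differed from Bulk in opposite directions. On the log2 scale it was at -0.51 (-0.87 to -0.16) in Claret, 0.26 (-0.05 to 0.57) in eGFP and 0.31 (0.01 to 0.63) in Violet, from counts of 159 (Bulk), 120, 192 and 198 reads. Claret was below eGFP by -0.76 (-1.11 to -0.44) and below Violet by -0.82 (-1.17 to -0.50). With 1 library per group the difference between groups was not tested, and the intervals cover counting error only.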

How the results depend on the processing

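No paired analysis was possible because each group holds 1 library, and leaving out a library would leave no group to compare. With groups from the titles, SLC16A1 was the 1 member called higher than Bulk in each library, and no member was called lower, under every setting tried. On log2(FPKM + 1), which understates low genes by construction, SLC16A1 was at 2.36, 2.29 and 1.92 and SLC16A7 at -0.50, -0.41 and -0.52 (Claret, eGFP, Violet, the order used below). Ratios between genes from reads without gene length differ from those printed by factors of 1.69 (SLC16A1 to SLC16A3), 2.08 (LDHB to LDHA), 1.65 (MPC1 to MPC2) and 1.38 (BSG to EMB).

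Groups from the treatment field turn the comparison around, because the library titled Bulk is then Claret. Claret over Bulk became -6.94 for SLC16A1, 1.39 for LDHA, -1.10 for SLC16A5, -2.53 for SLC16A8, -1.51 for LDHD, -1.49 for GPT, -1.21 for GPT2 and 1.32 for PGAM1. For eGFP over Bulk it gave -0.081 for SLC16A5, -0.35 for SLC16A8 and -0.46 for GPT, and for Violet over Bulk -0.025, -0.21 and -0.14. The members called higher than Bulk were then 0 throughout; 1 was lower in Claret than in Bulk, than in eGFP and than in Violet.

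List genes called higher numbered 3, 3 and 4 with a filter at 10 CPM, 2, 2 and 2 on log2(FPKM + 1), 2, 2 and 2 with a threshold of 1.5, and 3, 0 and 0 with the treatment field. Those called lower in Claret numbered 2, 3, 1 and 8 under the same settings; in eGFP 1 with the threshold of 1.5 and 0 with the treatment field, and in Violet 0 with either. The share of all genes called against Bulk was 8.28, 9.31 and 8.75% on log2(FPKM + 1) and 8.02, 8.89 and 8.32% with the threshold of 1.5; with the treatment field it was 1.06% in eGFP and 1.29% in Violet. Claret over eGFP gave 10.4% with no filter, 0.0791% at 10 CPM, 0.165% on log2(FPKM + 1), 18.0% with the treatment field, 0.713% with the binomial condition and 0.213% at 1.5. Claret over Violet gave 10.5, 0.109, 0.13 and 19.6% under the first 4 of these and 0.219% at 1.5, and eGFP over Violet gave 13.3, 0.0692 and 0.151% under the first 3 and 0.24% at 1.5. Depth limits the genes with few reads, among them GPT, HCAR1 and MPC1.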
